A study of Mus musculus with 22 samples.

Results

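Axon guidance genes are read here in mouse embryonic stem cells: the ephrins and their Eph receptors, the semaphorins with their plexin and neuropilin receptors, the netrins with the UNC5 receptors, and the slits with the Robo receptors. The members are all genes whose symbol belongs to one of these families and that have a probe set annotated to a single gene. They came to 67 of the 18193 genes measured, and where a gene had several probe sets, the one with the highest mean level across the 22 arrays was read. The array held 5 ephrin-A and 3 ephrin-B genes, 9 EphA and 4 EphB receptors, 7 class 3 semaphorins, 13 semaphorins of classes 4 to 7, 9 plexins, 2 neuropilins, 4 netrins, 4 UNC5 receptors, 3 slits and 4 Robo receptors.

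These families were named for steering growing axons and migrating cells. Netrins, slits and class 3 semaphorins are secreted, whereas ephrins and most other semaphorins sit in the membrane and act on a neighbouring cell. Ephrins also signal back into the cell that carries them, and many members act outside the nervous system, in blood vessel growth, in boundary formation between cell populations and in early embryonic tissue.

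The study asked how YAP and TAZ, the transcriptional coactivators of the Hippo pathway, take part in the degradation of beta-catenin. The cells were of the Rex1GFPd2 line, in which a destabilised GFP reports the pluripotency gene Rex1, and the labels do not describe the line further. They were grown in serum-free N2 and B27 medium with PD0325901, an inhibitor of the kinase MEK, so all 22 samples share that inhibitor. Reverse transfection delivered siControl#1, siControl#2, siYAP/TAZ#1 or siYAP/TAZ#2, and the medium was kept as 2i or changed to PD-only 24 hours later. 2i medium is PD0325901 with CHIR99021, an inhibitor of the kinase GSK3 that stabilises beta-catenin. All cells were harvested 72 hours after transfection. The 2i control group had 7 arrays (4 with siControl#1 and 3 with siControl#2), the PD-only control group 7 (4 and 3), and the PD-only siYAP/TAZ group 8 (4 with each siRNA mix). There was no siYAP/TAZ group in 2i medium. The labels call the samples biological replicates and do not say whether they came from separate cultures, so the p-values measure the spread between these samples.

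The siRNAs lowered their targets: Yap1 lay between 11 and 11.07 on the log2 scale in the PD-only control arrays and between 9.67 and 9.91 in the siYAP/TAZ arrays, and Wwtr1, which encodes TAZ, lay between 10.25 and 10.34 and between 9.18 and 9.41. The log2 differences were -1.27 ± 0.03 and -1.04 ± 0.03 (adjusted p = 2.61e-18 and 5.32e-17). All 7 stem cell markers read, Pou5f1, Nanog, Sox2, Zfp42, Esrrb, Utf1 and Tdgf1, were above the median gene, and their mean level was 12.24 to 12.30 in 2i control, 11.94 to 11.99 in PD-only control and 12.11 to 12.15 in PD-only siYAP/TAZ arrays. Of these 7 markers, 5 were higher and 2 lower in 2i than in PD-only control at an adjusted p of 0.05. With siYAP/TAZ, 4 were higher and 2 lower. Utf1 and Tdgf1 were the lower ones in both comparisons. Some marker lists of other cell types had a higher mean in PD-only control. The mean level of 8 fibroblast genes was 6.47 to 6.64 there, against 4.64 to 4.83 in 2i control and 4.70 to 4.88 with siYAP/TAZ, that of 7 primitive endoderm genes 5.59 to 5.69 against 4.72 to 4.88 and 4.74 to 4.99, and that of 8 trophoblast genes 6.99 to 7.05 against 5.97 to 6.06 and 6.21 to 6.32. The trophoblast genes did not move alike, with 2 higher and 4 lower in each comparison, not all of them the same genes. Log2 differences were -4.57 and -4.33 for Krt7 and -2.49 and -3.13 for Gata3, but 0.55 and 1.07 for Cdx2. Tfap2c had means of 8.60 in 2i control, 9.33 in PD-only control and 10.03 with siYAP/TAZ, and Plet1 of 7.76, 7.64 and 7.33. All 7 primitive endoderm genes and 7 of the 8 fibroblast genes had a mean over all arrays below the median gene, which was at 6.64. In PD-only control alone, the means of Dab2 (8.04), Col1a1 (9.09), Col1a2 (9.73) and Postn (7.69) were above that level. The other genes of these lists were below it there too. The signal of the 3′ Actb control probe set over its 5′ one, a sign of RNA integrity, was lower in PD-only control (0.717 ± 0.036 log2, SD, n = 7) than in 2i control (0.966 ± 0.104, n = 7) and PD-only siYAP/TAZ (0.975 ± 0.062, n = 8), with two-sided exact permutation p-values of 0.000583 and 0.000311, the smallest these sizes allow, and 0.00175 for both after Benjamini-Hochberg adjustment over 12 tests. These values move with the same arms as many results below. The part of the marker lists was not tested. In bulk samples, fewer cells of a type and less RNA per cell cannot be told apart.

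Across the 67 genes, 21 were higher and 22 lower in 2i control than in PD-only control by limma at an adjusted p of 0.05. That is 64.2% called, where 58% of all genes were called, 31.3% higher and 26.7% lower. In the siYAP/TAZ cells, 24 were higher and 18 lower than in PD-only control, which is 62.7% called beside 61.8% of all genes, 35.5% higher and 26.3% lower. Calls were thus about as frequent among guidance genes as among all genes. The shares over all genes also stand beside the counts by family, pathway and marker list given elsewhere. Changes of at least 2-fold, with the same adjusted p, were reached by 3 higher and 7 lower members in 2i (all genes 1.69% higher and 4.12% lower) and by 4 higher and 6 lower with siYAP/TAZ (1.9% and 4.47%). The median absolute log2 difference of the members was 0.21 in the first comparison and 0.20 in the second, beside 0.15 and 0.17 over all genes.

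The groups did not overlap for 31 members between 2i and PD-only control (37.6% of all genes) and for 27 between siYAP/TAZ and PD-only control (40.4% of all genes). Between siYAP/TAZ in PD-only medium and 2i control, 14 did not overlap (28.3% of all genes), 17 were higher and 15 lower. There 47.8% of members were called, beside 48.3% of all genes, of which 25.5% were higher and 22.8% lower, and the 2-fold mark was passed by 2 members upwards and by none downwards (all genes 0.632% and 0.879%). Both comparisons with PD-only medium use the same 7 control arrays, so their values are given side by side and not correlated. Slit2 and Epha4 were the members with calls in opposite directions.

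**Figure D1:**
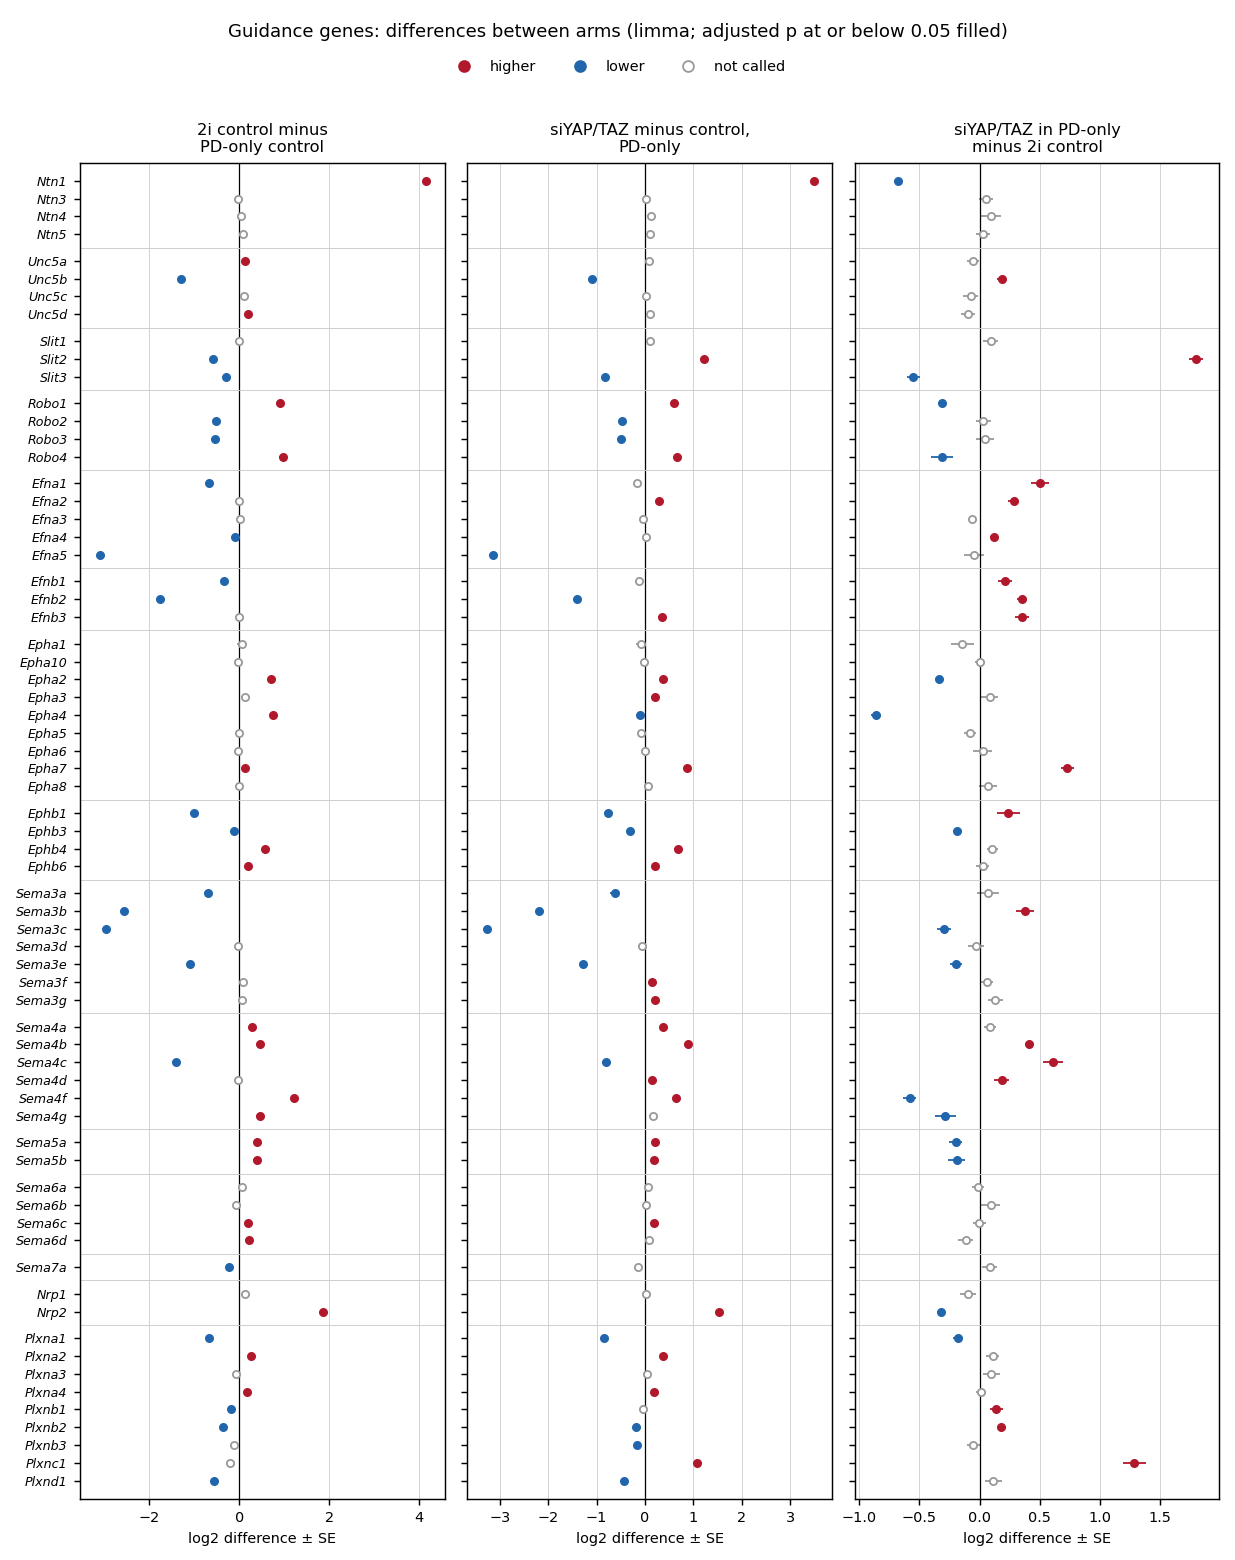
Log2 differences (x axis, bars are the SE of the limma fit over 22 arrays) of all 67 guidance genes, in rows by family, for 2i control minus PD-only control, PD-only siYAP/TAZ minus PD-only control and PD-only siYAP/TAZ minus 2i control. Filled red and blue points passed an adjusted p of 0.05; Ntn1 lies farthest to the right in the first 2 panels, Efna5 and Sema3c farthest to the left, and Slit2 farthest to the right in the third.

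To show what lies in front of the genes that moved most in both comparisons with PD-only control, the 250 bases before the start are given for every member that passed the 2-fold mark in the same direction in both and is in the promoter table. They are written 5′ to 3′ in the gene's own direction, from RefSeq on build GRCm38.p6. The 6 windows are Efna5 at chr17:62881318-62881567 (minus strand), Sema3c at chr5:17574566-17574815 (plus), Efnb2 at chr8:8661243-8661492 (minus), Unc5b at chr10:60831582-60831831 (minus) and Sema3e at chr5:14025026-14025275 (plus), whose genes were lower in both, and Nrp2 at chr1:62703067-62703316 (plus), which was higher in both. Capitals mark a match to CTTTGA, the core bound by the TCF/LEF partners of beta-catenin, or to GGAATG, the core bound by the TEAD partners of YAP and TAZ, on either strand.
Efna5: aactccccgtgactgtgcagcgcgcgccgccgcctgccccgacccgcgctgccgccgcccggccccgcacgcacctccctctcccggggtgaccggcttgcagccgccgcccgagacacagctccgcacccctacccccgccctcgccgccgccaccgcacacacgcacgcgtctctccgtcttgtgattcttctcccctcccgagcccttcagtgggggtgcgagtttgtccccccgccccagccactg
Sema3c: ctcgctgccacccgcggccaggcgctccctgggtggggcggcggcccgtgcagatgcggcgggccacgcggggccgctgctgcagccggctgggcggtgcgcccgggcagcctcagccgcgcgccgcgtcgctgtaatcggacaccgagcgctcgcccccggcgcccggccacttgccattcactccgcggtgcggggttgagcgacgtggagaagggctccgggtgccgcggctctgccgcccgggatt
Efnb2: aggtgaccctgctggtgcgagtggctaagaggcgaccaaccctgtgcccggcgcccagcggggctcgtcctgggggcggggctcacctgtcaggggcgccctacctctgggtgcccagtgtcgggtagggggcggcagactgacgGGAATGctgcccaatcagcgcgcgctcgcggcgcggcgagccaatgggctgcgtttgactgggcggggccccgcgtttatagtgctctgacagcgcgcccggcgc
Unc5b: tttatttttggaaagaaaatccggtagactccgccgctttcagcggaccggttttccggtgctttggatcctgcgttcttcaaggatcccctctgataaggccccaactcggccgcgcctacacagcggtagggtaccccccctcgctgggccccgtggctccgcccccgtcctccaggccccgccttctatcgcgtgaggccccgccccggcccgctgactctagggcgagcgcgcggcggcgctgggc
Sema3e: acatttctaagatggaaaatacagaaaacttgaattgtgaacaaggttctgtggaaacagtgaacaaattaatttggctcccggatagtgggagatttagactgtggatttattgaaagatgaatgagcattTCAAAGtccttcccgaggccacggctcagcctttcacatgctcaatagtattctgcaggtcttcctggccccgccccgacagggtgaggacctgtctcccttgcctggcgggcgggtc
Nrp2: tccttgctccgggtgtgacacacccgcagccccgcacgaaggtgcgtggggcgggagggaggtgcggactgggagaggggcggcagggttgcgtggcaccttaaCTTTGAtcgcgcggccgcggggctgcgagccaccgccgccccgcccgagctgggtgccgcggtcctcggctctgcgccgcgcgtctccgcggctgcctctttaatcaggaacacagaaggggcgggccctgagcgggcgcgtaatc

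The windows of Efna5, Sema3c and Unc5b held neither motif. The Nrp2 window held CTTTGA 146 bases before the start, the Sema3e window its reverse complement TCAAAG 118 bases before, and the Efnb2 window GGAATG 105 bases before. The promoter table held 58 of the 67 members, with 74 promoters; Efnb3, Ntn1, Plxna1, Plxna4, Sema3b, Sema3f, Sema6a, Slit1 and Unc5d were not among them. GGAATG was found in 8 of the 74 (Efnb2, Epha1, Epha2, Epha3, Ntn3, Plxnb1, Plxnd1 and Sema4a) and in 12.64% of the 32851 promoters of all genes. CTTTGA was found in 4 (Epha2, Nrp2, Robo4 and Sema3e) and in 13.83% of all, and TGANTCA, the AP-1 motif, in 3 (Sema4c, Sema4d and Sema6b) and in 6.75% of all. Each motif was searched on both strands in windows of the same length, and CTTTGA and TGANTCA can overlap at their shared TGA, but no member promoter held both. A match is a description of the letters and not a binding site.

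Among the netrins, secreted ligands that attract or repel axons, 1 of 4 changed in either comparison, and it had the largest difference of all members. Ntn1 lay at 10.52, 10.56 and 10.64 (lowest, median, highest) in 2i control, at 6.22, 6.39 and 6.59 in PD-only control and at 9.85, 9.89 and 9.93 in PD-only siYAP/TAZ arrays. The 3 groups were fully apart, with PD-only control far below the others. The log2 difference was 4.16 ± 0.04 (SE; adjusted p = 1.46e-24), or 17.9-fold, for 2i over PD-only control and 3.48 ± 0.04 (1.48e-23), or 11.2-fold, for siYAP/TAZ over control. The siYAP/TAZ cells stayed below 2i control by 0.67 ± 0.04 (log2 difference -0.67, adjusted p = 1.19e-11). A dimmer probe set of Ntn1 rose by 0.60 and 0.49. Ntn3, Ntn4 and Ntn5 had differences between -0.03 and 0.13, and none of the 3 was called. A dimmer probe set of Ntn4 was called lower in 2i (-0.23).

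Of the UNC5 receptors, which mediate repulsion by netrins, Unc5b fell in both comparisons. Its level was 7.60, 7.75 and 7.95 in 2i control, 8.99, 9.05 and 9.11 in PD-only control and 7.87, 7.93 and 8.02 with siYAP/TAZ. PD-only control was above both other groups without overlap. The log2 differences were -1.29 ± 0.04 (adjusted p = 1.51e-16) and -1.10 ± 0.04 (9.25e-16), and a second probe set fell by 1.11 and 1.00. Unc5a and Unc5d were higher in 2i by 0.13 and 0.19 and were not called with siYAP/TAZ (0.08 and 0.09), and Unc5c was called in neither (0.10 and 0.03). The call of Unc5a in 2i was lost when any of 9 single arrays was left out, with adjusted p from 0.052 to 0.115. Among genes of the netrin pathway outside the families, Neo1, a netrin receptor, was higher by 0.93 and 0.95, and Dcc, the receptor for attraction, by 0.23 and 0.17.

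The slits, secreted repellents of the Robo receptors, went different ways. Slit2 lay at 5.52, 5.57 and 5.76 in 2i control, at 6.06, 6.21 and 6.34 in PD-only control and at 7.22, 7.39 and 7.62 in siYAP/TAZ arrays. The groups were apart in that order, with PD-only control in the middle. Against PD-only control, Slit2 was lower in 2i (-0.59 ± 0.06, adjusted p = 4.06e-08) and higher with siYAP/TAZ (1.21 ± 0.06, 1.87e-13), and the siYAP/TAZ cells exceeded 2i control by 1.80 ± 0.06, or 3.47-fold (1.28e-15). Its other 2 probe sets, both dim, rose with siYAP/TAZ by 0.45 and 0.22 and were not called in 2i.

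Slit3 had a level of 6.03, 6.17 and 6.30 in 2i control, 6.39, 6.44 and 6.53 in PD-only control and 5.45, 5.63 and 5.83 with siYAP/TAZ. Here the siYAP/TAZ arrays were lowest, and again no groups overlapped. Slit3 fell by 0.29 ± 0.05 in 2i (log2 difference -0.29, adjusted p = 9.05e-05) and by 0.83 ± 0.05 with siYAP/TAZ (-0.83, 8.99e-12). Slit1 was called in neither comparison (0.00 and 0.09).

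All 4 Robo receptors were called in both comparisons, 2 in each direction, where 58% and 61.8% of all genes were called. Robo1, the main neuronal slit receptor with Robo2, was at 9.67, 9.83 and 9.88 in 2i control, 8.77, 8.85 and 9.02 in PD-only control and 9.38, 9.48 and 9.57 with siYAP/TAZ. It was highest in 2i and lowest in PD-only control, with no overlap. The differences were 0.92 ± 0.04 (adjusted p = 1.37e-14) and 0.60 ± 0.04 (6.32e-12), while 1 of its dimmer probe sets moved by 0.50 and -0.23, both called, the second in the opposite direction. Robo4, the vascular member, rose by 0.98 ± 0.09 (1.12e-08) and 0.67 ± 0.09 (1.52e-06). Robo2, which follows Robo1 on chromosome 16 with no protein-coding gene between, fell by 0.51 and 0.48, and Robo3, the neighbour of Robo4 on chromosome 9, by 0.54 and 0.50. A dimmer probe set of Robo3 was called in neither (0.01 and 0.055). The level of Robo2 was low in every group, between 2.54 and 3.46. The 8 markers of vascular endothelium had a mean level of 5.52 to 5.68 in 2i control, 5.50 to 5.56 in PD-only control and 5.58 to 5.64 with siYAP/TAZ. Of these markers, 2 were higher and 2 lower in the first comparison, and 4 higher and 2 lower in the second. In the second, 1 marker passed the 2-fold mark in each direction.

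Among ephrins, the cell-bound ligands of Eph receptors, Efna5 and Efnb2 had the largest changes. Efna5, anchored to the membrane by a lipid, was at 5.86, 6.09 and 6.24 in 2i control, 8.91, 9.27 and 9.43 in PD-only control and 5.82, 6.06 and 6.30 with siYAP/TAZ. The PD-only control arrays stood far above both other groups, and those 2 overlapped. Efna5 fell by 3.09 ± 0.08 in 2i (log2 difference -3.09, 8.5-fold, adjusted p = 1.84e-17) and by 3.13 ± 0.08 with siYAP/TAZ (-3.13, 8.77-fold, 6.60e-18). Between siYAP/TAZ and 2i control the difference was -0.05 ± 0.08 (95% interval -0.22 to 0.13). Its second, dim probe set gave -0.10 and -0.08 and was not called, and averaging both probe sets reduced the fall to 1.59 and 1.61.

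Efnb2, a transmembrane ligand known for arterial identity and reverse signalling, lay at 7.44, 7.66 and 7.78 in 2i control, 9.36, 9.41 and 9.49 in PD-only control and 7.91, 8.0 and 8.06 with siYAP/TAZ. PD-only control was highest, 2i control lowest, and no groups overlapped. The differences were -1.76 ± 0.04 (adjusted p = 1.30e-18) and -1.41 ± 0.04 (2.35e-17), and the next probe set gave -1.68 and -1.32. The third, dimmer, gave -0.41 and -0.28, both called, and the dimmest gave -0.03 and 0.08 and was called in neither. Averaging all 4 probe sets gave -0.97 and -0.74, under the 2-fold mark. The Efnb2 promoter is the one shown above with GGAATG.

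Of the other ephrins, Efna1 was lower in 2i (-0.66 ± 0.08, 2.60e-07) and was not called with siYAP/TAZ (-0.16 ± 0.08, 0.070); its siYAP/TAZ level exceeded that in 2i by 0.50 ± 0.08 (8.97e-06). Efnb1 showed a similar split, with -0.34 (4.68e-05) and -0.13 (0.055), and its siYAP/TAZ difference was called when any of 7 single arrays was left out; a dimmer probe set was lower in both (-0.78 and -0.56). Efna2 and Efnb3 were higher with siYAP/TAZ by 0.28 and 0.35 and did not pass in 2i (0.00 and -0.01). Efna4 was lower in 2i by a log2 difference of -0.09, a call that ended when any of 9 single arrays was left out (adjusted p from 0.050 to 0.094). Efna3 was called in neither, although its second probe set was called higher in 2i (0.12). Efna1, Efna3 and Efna4 lie side by side on chromosome 3.

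Of the 9 EphA receptors, tyrosine kinases that bind mainly ephrin-A ligands, 3 were called in 2i, all higher, and 4 with siYAP/TAZ, 3 of them higher. Epha2, a receptor common in epithelial cells, was at 8.88, 9.01 and 9.05 in 2i control, 8.20, 8.30 and 8.34 in PD-only control and 8.60, 8.65 and 8.67 with siYAP/TAZ. The siYAP/TAZ arrays fell between the other groups with no overlap. The differences were 0.71 ± 0.03 (adjusted p = 3.43e-14) and 0.37 ± 0.03 (7.77e-10), and the single probe set left no check within the array.

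Epha4, which binds ephrins of both classes, lay at 10.08, 10.24 and 10.35 in 2i control, 9.39, 9.47 and 9.55 in PD-only control and 9.27, 9.37 and 9.48 with siYAP/TAZ. The 2i arrays were above all others, and the PD-only groups overlapped. It was higher in 2i by 0.76 ± 0.04 (2.64e-13) and lower with siYAP/TAZ by a log2 difference of -0.11 ± 0.04 (0.015). That small fall turned to 0.03 when each array was centred on its median, and it was not called at an adjusted p of 0.01, with either siRNA number alone or with the Actb value as a covariate. All 4 other probe sets rose in 2i, by 0.40 to 1.26, and none was called with siYAP/TAZ.

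Epha7 differed between its probe sets. The one used was at 5.58, 5.73 and 5.86 in 2i control, 5.52, 5.58 and 5.70 in PD-only control and 6.29, 6.43 and 6.65 with siYAP/TAZ. On this probe set only the siYAP/TAZ arrays stood apart, by 0.86 ± 0.05 (adjusted p = 1.23e-11) from PD-only control and 0.73 ± 0.05 (4.19e-10) from 2i control. Its other 3 probe sets, all dimmer, did not show this: they gave -0.03 to 0.14 between siYAP/TAZ and 2i control, none called, and 2 of them were called higher in both comparisons with PD-only control (0.25 and 0.22, and 0.21 and 0.34). The call of the chosen probe set in 2i (0.14, 0.044) was lost without any of 11 single arrays, with adjusted p from 0.050 to 0.112. Epha3, dim in every array (2.82 to 3.39), was higher with siYAP/TAZ by 0.21, and Epha1, Epha5, Epha6, Epha8 and Epha10 were called in neither comparison, with differences between -0.09 and 0.05; a second probe set of Epha1 was lower with siYAP/TAZ (-0.42).

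All 4 EphB receptors, partners of the ephrin-B ligands, were called in both comparisons, where 58% and 61.8% of all genes were called. Ephb1 had a level of 4.51, 4.61 and 4.84 in 2i control, 5.36, 5.58 and 6.12 in PD-only control and 4.68, 4.88 and 5.19 with siYAP/TAZ. PD-only control lay above both without overlap, and the differences were -1.0 ± 0.10 (adjusted p = 1.91e-08), just under the 2-fold mark, and -0.76 ± 0.09 (5.46e-07). Ephb4, the venous receptor of ephrin-B2, was at 7.16, 7.32 and 7.37 in 2i control, 6.55, 6.67 and 6.95 in PD-only control and 7.27, 7.39 and 7.54 with siYAP/TAZ. PD-only control was lowest here, where it was highest for the ligand Efnb2, and Ephb4 rose by 0.57 ± 0.05 (2.01e-09) and 0.67 ± 0.05 (6.68e-11). Ephb3 was lower by log2 differences of -0.12 and -0.30, and Ephb6, which lacks kinase activity, was higher by 0.19 and 0.22.

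**Figure D2:**
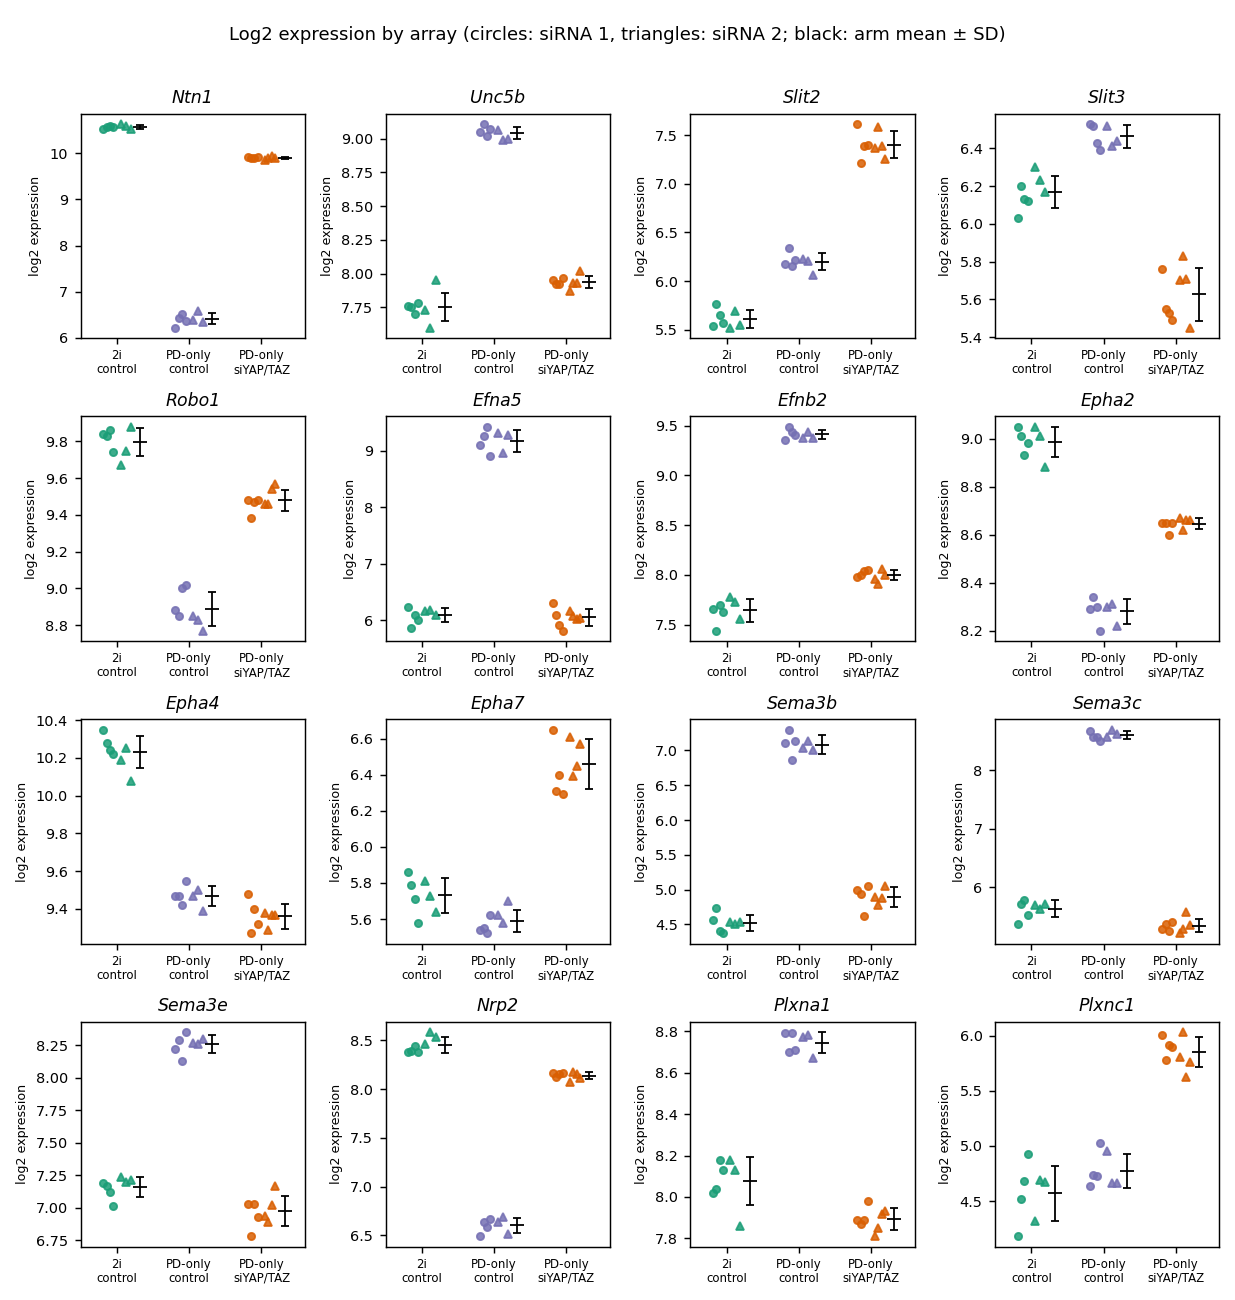
Log2 expression (y axis, a different range in each panel) of 16 guidance genes in every array, for 2i control (7 arrays), PD-only control (7) and PD-only siYAP/TAZ (8); circles are the first siRNA of a kind, triangles the second, and the black mark is the mean with its SD. In Ntn1, Efna5, Efnb2, Sema3b, Sema3c and Nrp2 the PD-only control arrays stand apart from both other groups, in Epha4 the 2i arrays, and in Epha7 and Plxnc1, by the probe sets plotted, the siYAP/TAZ arrays.

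The class 3 semaphorins, secreted ligands that act through neuropilins and plexins, had 4 of 7 members lower and none higher in 2i, and 4 lower and 2 higher with siYAP/TAZ. The median log2 difference was -0.69 and -0.63 over the 7, beside 0.04 and 0.06 over all genes. Sema3c, known for its part in heart outflow tract formation, was at 5.37, 5.69 and 5.79 in 2i control, 8.5, 8.58 and 8.70 in PD-only control and 5.21, 5.32 and 5.58 with siYAP/TAZ. Every PD-only control array exceeded every other array by a wide margin. Sema3c fell by 2.97 ± 0.06 in 2i (log2 difference -2.97, 7.83-fold, adjusted p = 1.50e-19) and by 3.27 ± 0.06 with siYAP/TAZ (-3.27, 9.63-fold, 1.63e-20). Its dimmer second probe set gave log2 differences of -1.08 and -1.06, and averaging both gave -2.02 and -2.16.

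Sema3b lay at 4.37, 4.53 and 4.73 in 2i control, 6.86, 7.11 and 7.30 in PD-only control and 4.62, 4.91 and 5.05 with siYAP/TAZ. Again PD-only control was the high group, and the other 2 overlapped. The differences were -2.56 ± 0.07 (adjusted p = 4.12e-17) and -2.18 ± 0.07 (2.77e-16). The other 2 probe sets of Sema3b also fell, by 0.76 and 0.97 in 2i, and averaging all 3 gave -1.43 and -1.20.

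Sema3e, a ligand that binds plexin-D1 without a neuropilin, was at 7.01, 7.19 and 7.24 in 2i control, 8.13, 8.27 and 8.35 in PD-only control and 6.78, 6.98 and 7.17 with siYAP/TAZ. Its 4 probe sets fell alike, by 1.09 to 1.34 in 2i and 1.21 to 1.70 with siYAP/TAZ, and the chosen one gave -1.09 ± 0.05 (adjusted p = 5.43e-14) and -1.29 ± 0.05 (1.58e-15). Sema3a, the classic growth cone repellent and the neighbour of Sema3d on chromosome 5, was lower by log2 differences of -0.69 ± 0.09 (1.81e-06) and -0.63 ± 0.09 (3.96e-06). Sema3d was called in neither (-0.02 and -0.05). Sema3f and Sema3g were called higher with siYAP/TAZ alone, by 0.14 and 0.20. Neither difference was called with the Actb value as a covariate, and for Sema3f it was then -0.01. A dimmer probe set of Sema3f was called lower in 2i (-0.27).

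The membrane-bound semaphorins moved in both directions. Sema4f was at 6.25, 6.29 and 6.46 in 2i control, 5.02, 5.05 and 5.29 in PD-only control and 5.63, 5.73 and 5.95 with siYAP/TAZ. It was highest in 2i and lowest in PD-only control, with differences of 1.23 ± 0.06 (adjusted p = 1.03e-13) and 0.65 ± 0.05 (1.67e-09) and no overlap. Its second probe set rose less, so that leaving out the first by its suffix reduced the 2i difference to 0.24.

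Sema4b, by contrast, was highest with siYAP/TAZ: 8.74, 8.83 and 8.94 in 2i control, 8.24, 8.37 and 8.54 in PD-only control and 9.14, 9.25 and 9.32 with siYAP/TAZ. The groups were apart, by 0.47 ± 0.04 (adjusted p = 3.04e-09) in 2i and 0.88 ± 0.04 (5.07e-14) with siYAP/TAZ. Sema4c was the one class 4 gene that fell, from 5.89, 6.14 and 6.41 in PD-only control to 4.25, 4.77 and 4.93 in 2i control and 5.16, 5.30 and 5.44 with siYAP/TAZ. Its differences were -1.42 ± 0.09 (1.18e-11) and -0.81 ± 0.08 (4.15e-08), so the siYAP/TAZ arrays were between the others.

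Sema4a was higher in both (0.28 and 0.37), Sema4g in 2i alone (0.46, with 0.17 for siYAP/TAZ not called), and Sema4d with siYAP/TAZ alone (0.15), a call that ended without any of 8 single arrays. Sema5a and Sema5b, whose extracellular part carries thrombospondin repeats, were higher in both, by 0.40 and 0.38 in 2i and 0.20 and 0.19 with siYAP/TAZ. The siYAP/TAZ call of Sema5b was lost without PD-only siControl#1 replicate C, PD-only siControl#2 replicate C or siYAP/TAZ#1 replicate D (adjusted p from 0.052 to 0.117). In class 6, Sema6c was higher by 0.19 in both. Sema6d was higher in 2i alone by the probe set used (0.21), but another of similar brightness was called lower in both (-0.62 and -0.53). Sema6a and Sema6b were called in neither, although a dimmer probe set of Sema6a fell by 0.63 and 0.56. Sema7a, the lipid-anchored semaphorin, was lower in 2i by a log2 difference of -0.23 and not called with siYAP/TAZ (-0.15).

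Nrp2, a coreceptor of class 3 semaphorins and of VEGF, rose in both comparisons. It lay at 8.38, 8.44 and 8.58 in 2i control, 6.49, 6.64 and 6.69 in PD-only control and 8.07, 8.15 and 8.17 with siYAP/TAZ. The 3 groups did not overlap, and PD-only control was far lowest. The differences were 1.86 ± 0.03, or 3.62-fold (adjusted p = 1.51e-20), and 1.53 ± 0.03, or 2.89-fold (1.65e-19), and the other 3 probe sets rose by 0.96 to 1.00 and by 0.75 to 1.08.

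Nrp1, the other neuropilin, depended on the probe set. The brightest one was called in neither comparison (0.12 and 0.03), by a narrow lead in mean level, 4.74 against 4.44 to 4.70. The other 3 were called lower in both, by log2 differences of -0.48 to -0.99 in 2i and -0.48 to -1.14 with siYAP/TAZ. The mean of the 4 gave -0.50 and -0.58, the reverse of the chosen probe set in sign.

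The plexins, which transmit the semaphorin signal, had 2 of 9 members higher and 4 lower in 2i, and 3 higher and 4 lower with siYAP/TAZ. Plxnc1, the receptor of Sema7a, was at 4.18, 4.67 and 4.93 in 2i control, 4.64, 4.73 and 5.03 in PD-only control and 5.63, 5.86 and 6.03 with siYAP/TAZ. The siYAP/TAZ arrays alone were apart, by 1.08 ± 0.10 (adjusted p = 3.69e-09) from PD-only control and 1.29 ± 0.10 (5.26e-10) from 2i control. The difference in 2i was -0.20 ± 0.10 (0.091) and reached 0.021 without 2i siControl#1 replicate D. A second probe set of similar brightness gave -0.73, which was called, and 0.90.

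Plxna1, a coreceptor that joins neuropilins, lay at 7.86, 8.13 and 8.18 in 2i control, 8.67, 8.77 and 8.79 in PD-only control and 7.81, 7.89 and 7.98 with siYAP/TAZ. PD-only control was highest without overlap, by log2 differences of -0.67 ± 0.04 (adjusted p = 3.50e-11) and -0.85 ± 0.04 (3.25e-13). Its dim second probe set was called in neither (0.10 and 0.07). Plxnd1, the receptor of Sema3e, also fell, with log2 differences of -0.56 ± 0.07 (9.46e-07) and -0.44 ± 0.07 (1.11e-05). Plxnb2 gave -0.37 and -0.19, both called, and Plxna2 was higher by 0.26 and 0.37 and Plxna4 by 0.18 and 0.19. Plxnb1, the semaphorin 4D receptor, was lower in 2i (-0.19) and not called with siYAP/TAZ (-0.05), although its second probe set gave -1.0 and -1.01. Plxnb3 was lower with siYAP/TAZ alone (-0.16), and the call ended without PD-only siControl#2 replicate A (0.060). Plxna3 was called in neither.

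**Figure D3:**
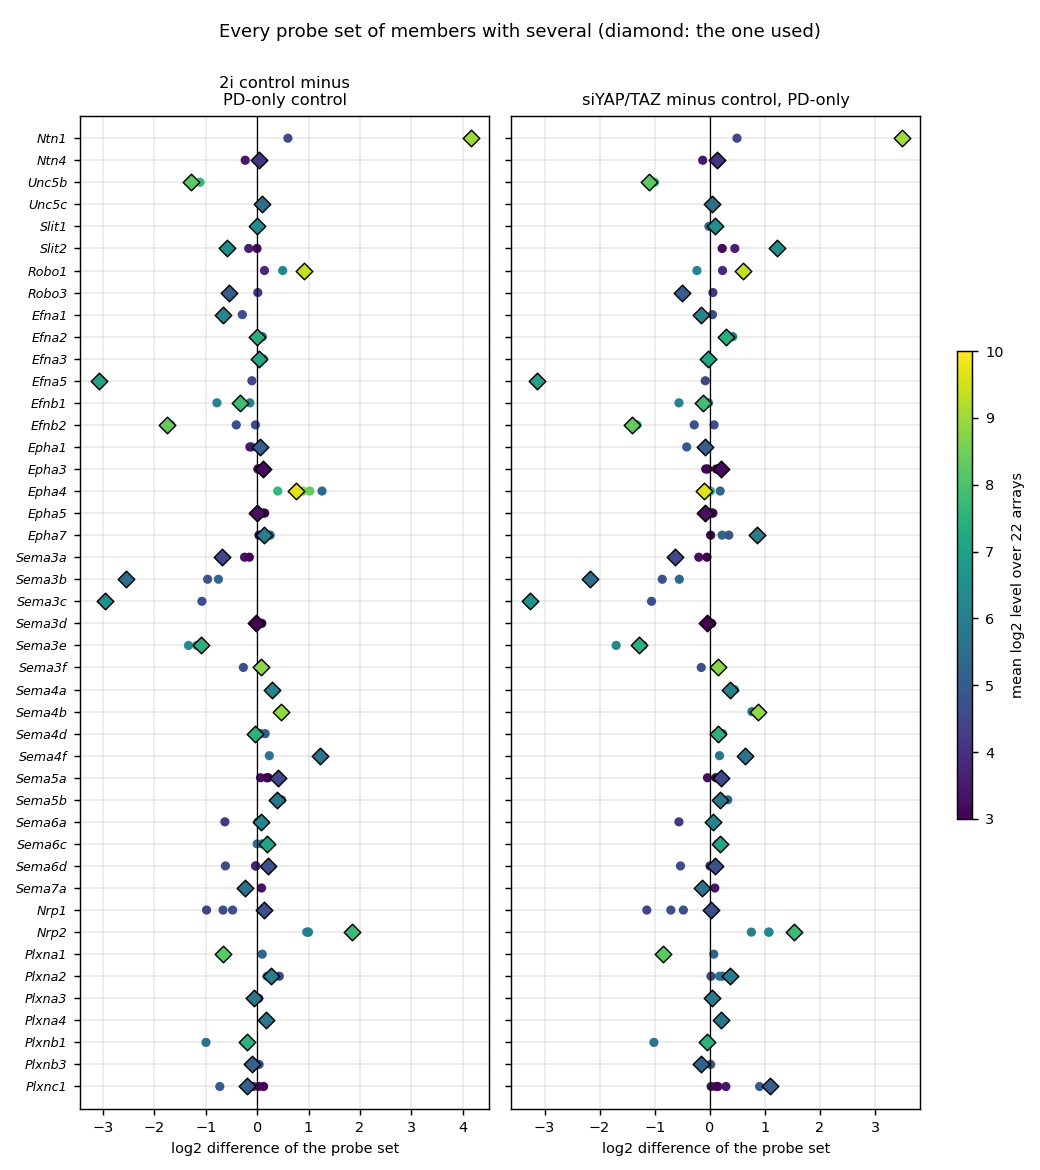
Log2 difference (x axis) of every probe set of the 44 members with several, one gene a row, in 2i control minus PD-only control and in PD-only siYAP/TAZ minus PD-only control; diamonds are the probe sets used and the colour is the mean log2 level over 22 arrays. The dimmer probe set of Efna5 lies near 0, that of Ntn1 lies at 0.60 and 0.49, far below the one used, those of Sema3e lie together, and the other 3 of Nrp1 lie to the left of the one used.

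In 2i, 28 of the members with several probe sets were called, and for 20 another probe set was called in the same direction, for 1 (Sema6d) in the opposite direction, and for 7 no other was called. With siYAP/TAZ, 29 were called, 23 of them with another probe set in the same direction and 6 with no other called, and Robo1 had probe sets in both directions. Probes of one gene are not replicates, and they can read different transcripts.

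Differences between siRNAs of a kind were small beside those between the arms. The largest of a member was -0.20 ± 0.12 between the siYAP/TAZ mixes (Robo4) and -0.17 ± 0.08 between the control siRNAs (Ntn4). Between siYAP/TAZ#1 and siYAP/TAZ#2, limma called 0 of the 67 members (0% of all genes), and at an unadjusted p under 0.05 it found 1 member, Unc5d, and 3.57% of all genes. Between the control siRNAs it called 0 members (0% of all genes), with 5 at an unadjusted p under 0.05 (Efna2, Nrp2, Plxna4, Plxnb3 and Robo1) and 6.5% of all genes. The medium difference depended on the control siRNA in 0 members (0% of all genes) by the interaction term, with 2 at an unadjusted p under 0.05 (Epha8 and Sema4a) and 5.22% of all genes. The Ntn1 mean was 10.56 and 10.58 with the 2 control siRNAs in 2i, 6.38 and 6.44 in PD-only medium, and 9.90 and 9.89 with the 2 siYAP/TAZ mixes.

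**Figure D4:**
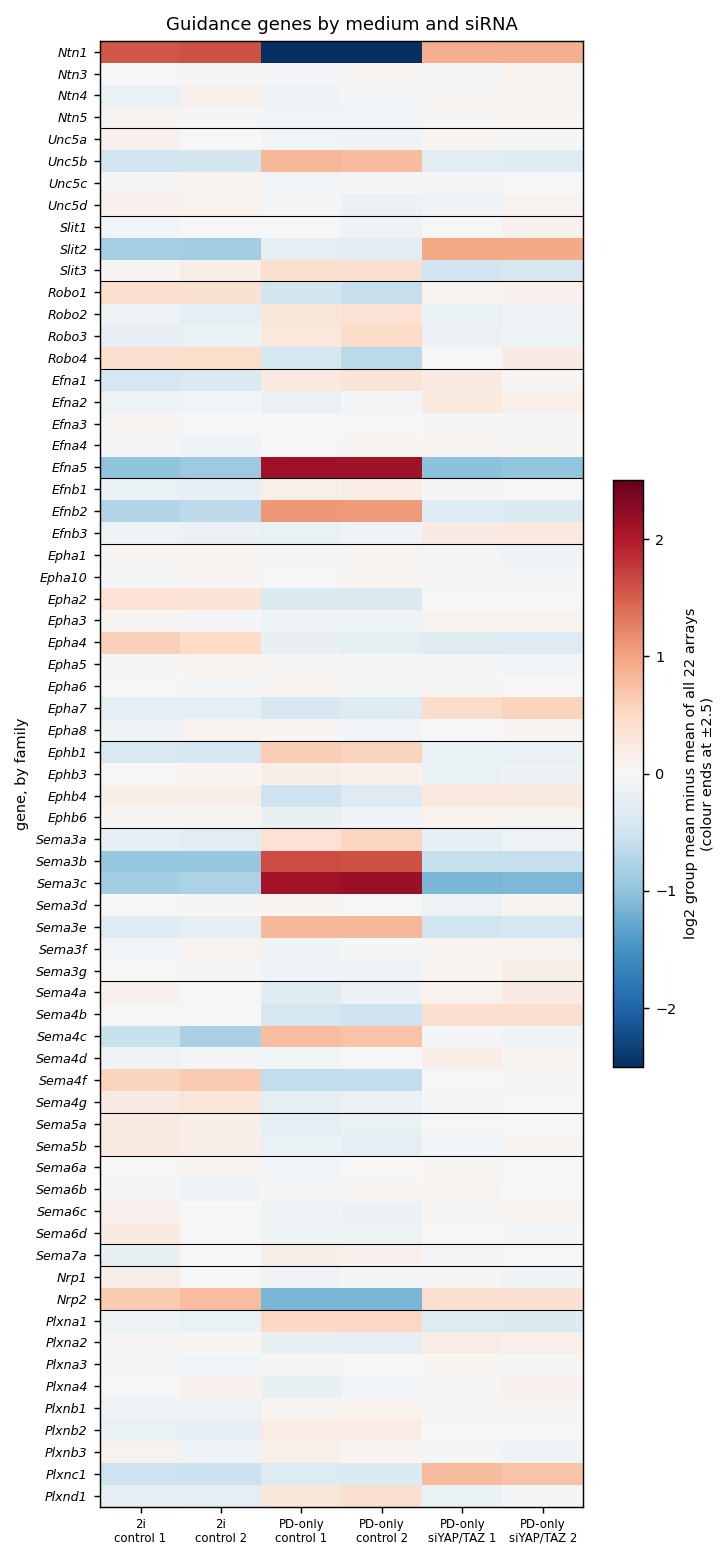
Mean log2 expression of each group minus the mean over all 22 arrays (colour, ending at 2.5 in either direction) for the 67 guidance genes in rows and the 6 groups of medium and siRNA in columns. The columns of one medium and siRNA kind look alike, and Ntn1, Efna5, Sema3b and Sema3c show the strongest colours in the PD-only control columns.

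Other ligands, receptors, adhesion proteins and signal relays of the guidance pathways were read as 50 listed genes outside the families. In 2i 10 were higher and 29 lower, or 78% called, beside 58% of all genes (31.3% higher and 26.7% lower). With siYAP/TAZ 13 were higher and 32 lower, or 90% called, beside 61.8% of all genes (35.5% higher and 26.3% lower). The list was chosen with earlier results of these data known, so these shares are not a test. The median log2 differences were -0.20 and -0.26, beside 0.04 and 0.06 over all genes. By pathway, the counts higher and lower in 2i were 4 and 5 of 11 netrin genes, 2 and 5 of 7 slit and Robo genes, 2 and 11 of 17 semaphorin genes and 2 and 8 of 15 ephrin genes, and with siYAP/TAZ 3 and 5, 1 and 4, 7 and 10, and 2 and 13. The collapsin response mediators, cytosolic relays of semaphorin signals on the cytoskeleton, were all lower in both: Dpysl2 by log2 differences of -3.71 and -2.89, Crmp1 by -2.58 and -1.38, Dpysl3 by -2.12 and -1.62, Dpysl4 by -1.55 and -1.52 and Dpysl5 by -0.38 and -0.49. Dpysl2 was at 9.83, 9.88 and 9.98 in PD-only control, 5.92, 6.21 and 6.43 in 2i control and 6.89, 7.01 and 7.16 with siYAP/TAZ, with no overlap. Crmp1 in siYAP/TAZ cells exceeded 2i control by 1.20 ± 0.03.

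Others of the listed genes with a difference of at least 2-fold were as follows. Trio, which acts below netrin receptors, had log2 differences of -2.0 and -2.40, Farp1, which binds plexins, of -1.26 and -1.15, Vav2, which acts below Eph receptors, of -1.06 and -0.49, and Grip1, an ephrin-B adaptor, of -1.47 and -1.63. Those of Flrt3, which encodes an adhesion protein that binds UNC5 receptors, were -0.97 and -1.24. Vegfa, a neuropilin ligand, gave -1.14 and -1.37, and Met, a partner of plexin-B1, -1.11 and -1.80. Rnd1, a small GTPase that binds plexins, was not called in 2i (0.12) and rose by 1.18 with siYAP/TAZ. Chn2, a Rac regulator, rose by 1.05 in 2i and was lower with siYAP/TAZ (-0.28). Nrcam, a cell adhesion coreceptor, was lower in 2i (-0.76) and higher by 0.39 with siYAP/TAZ. It passed 2-fold only between siYAP/TAZ, at a mean of 6.16, and 2i control, at 5.01. The 10 neuronal markers were not uniform: 2 were higher and 5 lower in 2i, with Tubb3 at -0.97 and 0.79 and Neurod1 at -1.94 and -2.97, and 1 was higher and 5 lower with siYAP/TAZ.

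With the Actb 3′ over 5′ value as a covariate, 15 members were higher and 20 lower in 2i, and 17 higher and 16 lower with siYAP/TAZ. Ntn1 then differed by 4.22 and 3.55, Efna5 by -3.13 and -3.17, Sema3c by -2.89 and -3.19, and Nrp2 by 1.83 and 1.51, and every member past the 2-fold mark kept its call. Centring each array on its median raised the median of all genes by 0.12 and 0.14 in the comparisons with PD-only control, and the split of members became 31 higher and 18 lower in 2i and 40 higher and 15 lower with siYAP/TAZ. Differences smaller than that shift can change sign with the scaling. The shares of all genes called were not counted in these fits. Whether the changed counts are particular to guidance genes was therefore not tested.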

How the data were processed

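Total RNA was labelled with a 3′ IVT kit and hybridised to Affymetrix mouse arrays, per the labels' protocols. The deposited table holds log2 expression values of 45101 probe sets on 22 arrays, made with RMA per the submitters' processing notes, with its version, background settings and probe annotation not given in the sources used here. RMA sets each array to a common distribution, so differences are relative to the other genes, and it compresses differences of dim genes.

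Probe sets were named from the platform annotation: 34945 had 1 gene symbol, 932 had several and were not used, and array control probe sets were left out. Each of the 18193 genes was read from its brightest probe set over all arrays. limma 3.58.1 in R 4.3.3 fitted 6 groups of medium and siRNA to all genes and 22 arrays (16 residual and 3.1 prior degrees of freedom), with contrasts that weigh the siRNAs of an arm equally, and Benjamini-Hochberg adjustment over all genes. A gene was called at an adjusted p of 0.05; a difference is given ± the fit's standard error. The number of arrays limits the precision. Array quality was compared with exact permutation tests (scipy 1.17.1). The named genes are every member, Yap1 and Wwtr1, listed pathway genes past 2-fold in any arm comparison, and markers as counts and ranges. Dcc, Neo1, Dpysl5, Tubb3, Neurod1, Krt7, Gata3, Cdx2, Tfap2c, Plet1, Col1a1, Col1a2, Postn and Dab2 were named after their values were seen. The members, lists and the printed promoters were chosen with earlier results of these data known. Of the listed netrin pathway genes, 11 of 12 were measured.

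The fit was tested on made-up data with known answers, for 2i against PD-only control, siYAP/TAZ against PD-only control and siYAP/TAZ against 2i. It recovered 96%, 97% and 99% of 100 genes changed by 0.5 among 18193, and 100% of 100 changed by 1. False calls were 13 of 209, 14 of 211 and 12 of 211. Far fewer genes were changed than were called in the real data, and the noise was independent between arrays. The made-up data therefore cannot show effects of RNA quality or scaling. Alternatives were other probe set rules, normalisations, filters, thresholds, blocks, siRNA subsets and leaving out each array. The labels do not say what the replicate letters mark, and the main fit does not pair them. Same-letter correlations of residuals ran from -0.08 to 0.12 over 51 pairs, with 2 over 0.1. Those of different letters ran from -0.16 to 0.18 over 150 pairs, with 4 over 0.1.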

Additional observations from a re-analysis of the deposited data

Results flagged for a closer look

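Of 268 tests, 1 for each member in each group of 4 arrays, 16 found an array far from the other 3 by Dixon's test, where chance gives about 1 in 20. In siYAP/TAZ#1 the single array stood at 7.93 for Efna4 (others 8.08 to 8.11), 8.60 for Epha2 (8.65 in each of the others) and 4.66 for Sema3a (4.20 to 4.26), all in replicate C. Other siYAP/TAZ#1 values were 5.28 for Epha1 in replicate D (4.92 to 4.97), 3.41 for Epha5 in replicate A (3.17 to 3.18) and 9.38 for Robo1 in replicate B (9.47 to 9.48). In siYAP/TAZ#2, Epha4 stood at 9.29 (9.37 to 9.38) and Sema3a at 4.72 (4.30 to 4.36) in replicate B, and Epha5 at 3.26 (3.14 to 3.16) and Sema3g at 4.77 (4.60 to 4.62) in replicate A. In PD-only siControl#1, Sema3a stood at 5.20 (4.82 to 4.84) and Sema3g at 4.28 (4.43 to 4.45) in replicate A, and Plxnb2 at 8.18 (8.24 to 8.25) in replicate D. In 2i siControl#1, Epha3 stood at 3.37 (3.14 to 3.17) and Sema6b at 5.25 (5.53 to 5.56) in replicate B, and Nrp2 at 8.44 (8.38 to 8.39) in replicate C. Sema3a was marked in 3 groups, and no array held more than 3 of the 16.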

How the results depend on the processing

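Of the called members, 30 of 43 (2i against PD-only control), 29 of 42 (siYAP/TAZ against PD-only control) and 20 of 32 (siYAP/TAZ against 2i) kept direction and call in all 36 other fits at the same threshold, and 40, 38 and 28 did so without any single array. Leaving out 1 array gave 19 to 21 higher and 21 to 23 lower members, 22 to 25 and 17 to 20, and 15 to 18 and 14 to 17. Shares of all genes called were not counted in the other fits, so such counts describe the members only. Besides the losses given with the results, Ephb1, Plxnb1 and Sema5b lost their call between siYAP/TAZ and 2i without any of 11, 9 and 7 single arrays, Sema4d without 2i siControl#2 replicate C (adjusted p = 0.059), and Sema3f its siYAP/TAZ call without any of 8. Leaving out dim genes, which tests fewer members, gave 8 higher and 10 lower, 10 and 9, and 10 and 9. Asking for 2-fold gave 3 and 7, 4 and 6, and 2 and 0. With the second siRNA of each kind only, which has fewer arrays, 13 were higher in 2i, and after centring each array on its median 40 were higher with siYAP/TAZ. With the replicate block, 20 were higher and 21 lower, 24 and 19, and 16 and 15, and the control siRNA and mix comparisons stayed at 0 called. Signs turned, with the cause not tested, for the mean of all probe sets in 2i for Nrp1 (-0.50), Sema6a (-0.18) and Sema6d (-0.12), with siYAP/TAZ for Nrp1 (-0.58), Sema6a (-0.14) and Sema6d (-0.10), and between siYAP/TAZ and 2i for Plxna2 (-0.093). They turned after centring for Efna4 (0.030), Epha5 (0.12) and Ephb3 (0.0021) in 2i and Efna3 (0.11), Epha10 (0.11) and Epha4 (0.032) with siYAP/TAZ, and after a second quantile normalisation for Efna3 (0.091). The Actb covariate turned Sema4d in 2i (0.25) and Sema3f with siYAP/TAZ (-0.012), and leaving out probe sets by suffix turned Plxnb3 (0.015). Low signal limits Epha3, Epha5, Epha6, Ephb6, Robo2, Sema3d and Unc5d, whose means are near the bottom of the scale.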
